A study of Homo sapiens with 3 samples.

Results

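The 34 genes described here are 20 cytosolic aminoacyl-tRNA synthetase genes, and ATF4 with 13 of its amino acid and stress targets. They were chosen by symbol from the gene rows of 3 single-cell count matrices, and all 34 symbols matched 1 row each among 32738 genes. The synthetases are AARS, CARS, DARS, EPRS, FARSA, FARSB, GARS, HARS, IARS, KARS, LARS, MARS, NARS, QARS, RARS, SARS, TARS, VARS, WARS and YARS. The second group holds the regulators ATF4, ATF3, DDIT3, TRIB3, CHAC1 and SESN2, the enzymes ASNS, PHGDH, PSAT1, PSPH, SHMT2 and MTHFD2, and the transporter subunits SLC7A11 and SLC3A2. No expression value entered the choice of symbols, but the set was proposed with earlier results of these libraries known.

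Kelly is a human neuroblastoma line with amplified MYCN and a mutated, constitutively active ALK receptor, and TAE684 is a small-molecule inhibitor of ALK. The study profiled Kelly cells in 3 states of TAE684 response with droplet-based 3' RNA sequencing, with 1 library per state. Sensitive cells grew with the solvent DMSO, intermediate resistant cells with 500 nM TAE684 and fully resistant cells with 1 µM TAE684, all in RPMI-1640 with fetal bovine serum and antibiotics. The response state, the drug in the medium and the culture itself therefore cannot be told apart, all cells descend from 1 line, and no difference below has a replicate check.

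Cells were barcodes with at least 5000 UMIs (unique molecular identifiers, 1 per captured transcript), at least 500 genes and at most 20% mitochondrially encoded UMIs. This gave 5415 sensitive, 6288 intermediate resistant and 6331 fully resistant cells with 95119772, 102449567 and 106163582 UMIs in that order, and a median of 15660.5 to 16014 UMIs per cell. Between 38 and 62 cell barcodes were shared by any pair of libraries. The adrenergic neuroblastoma markers HAND2 and GATA3, transcription factors of the sympathetic lineage, were detected in every library. HAND2 had 370.4, 417 and 283 CPM (UMIs per 1000000 UMIs of the library) from sensitive through intermediate to fully resistant cells, and GATA3 had 275, 435 and 111 CPM in the same order. Summed leukocyte, endothelial and epithelial markers reached at most 2.58, 0.76 and 1.49 CPM, with PTPRC, the leukocyte surface marker, at 0.02 to 0.07 CPM. The 8 mesenchymal neuroblastoma markers summed to 75.5, 11.1 and 31.4 CPM in the same order, and the 7 fibroblast markers to 20.1, 20.8 and 17.7 CPM. The fibroblast marker PDGFRA had 0.30, 6.05 and 0.12 CPM. The part of these marker differences in the member values was not tested. RNA outside cells, measured in barcodes of 10 to 100 UMIs, could have supplied between 0.15% and 0.57% of the UMIs of any member in cells.

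Each cytosolic aminoacyl-tRNA synthetase joins 1 amino acid to its tRNAs (EPRS joins a pair of them), and the products feed every round of translation. ATF4 is a basic leucine zipper transcription factor whose mRNA is translated more efficiently when the translation factor eIF2 is phosphorylated, as happens on amino acid shortage or on stress of the endoplasmic reticulum. It raises the transcription of many synthetase genes, of enzymes that make asparagine, serine and glycine, and of amino acid transporters, so that its activity is read from its targets more than from its own mRNA. In MYCN-amplified neuroblastoma cells, ATF4 and the serine and glycine pathway are known to be active and to supply one-carbon units for nucleotide synthesis.

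ATF4 and its C/EBP partners bind a composite element that reads TGATGNAA, where N is any base. The letters were searched on both strands of RefSeq promoter windows (GRCh38.p14, 250 bases before to 50 bases after a gene's start), which were at hand for 27 of the 34 genes. It occurred in 11 of the 27 (40.7%), against 1217 of 27305 genes with a window (4.46%). The genes were chosen in part as ATF4 targets, so a higher share can follow from that choice and is no test of the set. No other element was searched. The synthetases held TGATGNAA in 7 of 16 genes with a window, and ATF4 and its targets in 4 of 11. A gene with more than 1 window counted if any of them held the element. DARS, LARS, VARS, YARS, PSPH, SHMT2 and SLC7A11 were not searched. The 6 genes in which the whole element lay before the start are shown, because they carry the letters that link synthetases, a stress regulator and a biosynthetic enzyme in 1 list. Each line runs 5′ to 3′ on the strand of the gene, with the element in capitals, and an element that begins with TT is read on the other strand.
AARS (chr16:70289666-70289713, minus strand): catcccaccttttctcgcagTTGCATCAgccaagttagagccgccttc
GARS (chr7:30594825-30594872, plus strand): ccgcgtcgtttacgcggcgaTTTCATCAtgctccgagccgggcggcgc
IARS (chr9:92293698-92293730, minus strand): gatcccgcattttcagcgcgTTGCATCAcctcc
ATF3 (chr1:212565196-212565243, plus strand): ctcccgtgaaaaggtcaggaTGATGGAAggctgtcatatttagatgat
CHAC1 (chr15:40953242-40953289, plus strand): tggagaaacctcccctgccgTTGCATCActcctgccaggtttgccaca
ASNS (chr7:97872449-97872496, minus strand): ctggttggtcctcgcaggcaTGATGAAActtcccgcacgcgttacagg
The letters TTGCATCA were the same in AARS, IARS and CHAC1, whereas ATF3 and ASNS held the element on the strand of the gene. CARS, MARS, NARS, TARS and SLC3A2 held it across or after the start. A match describes letters only, and no binding was measured.

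In fully resistant cells, compared with sensitive cells, the synthetases and the ATF4 targets did not move together. Genes counted as higher or lower from a 1.5-fold ratio on, if the upper of both levels reached 5 CPM, and no test was possible with 1 library per group. Of the 32 members measured at that level, 4 were higher (CARS, MARS, DDIT3 and SHMT2) and 7 were lower (AARS, EPRS, KARS, QARS, RARS, ATF4 and PHGDH). The same rule counted 15.2% of 9800 genes as higher and 14.7% as lower. The median log2 ratio was -0.02 over the 20 synthetases and -0.13 over the 12 measured genes of the ATF4 group, against 0.08 over all genes tested. From a 2-fold ratio on, DDIT3 was higher and AARS and QARS were lower, against 6.73% of all genes higher and 7.33% lower. With 1 library per group no test of these shares was run, so nothing is called particular to the set and its genes are described singly, by role.

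**Figure D1:**
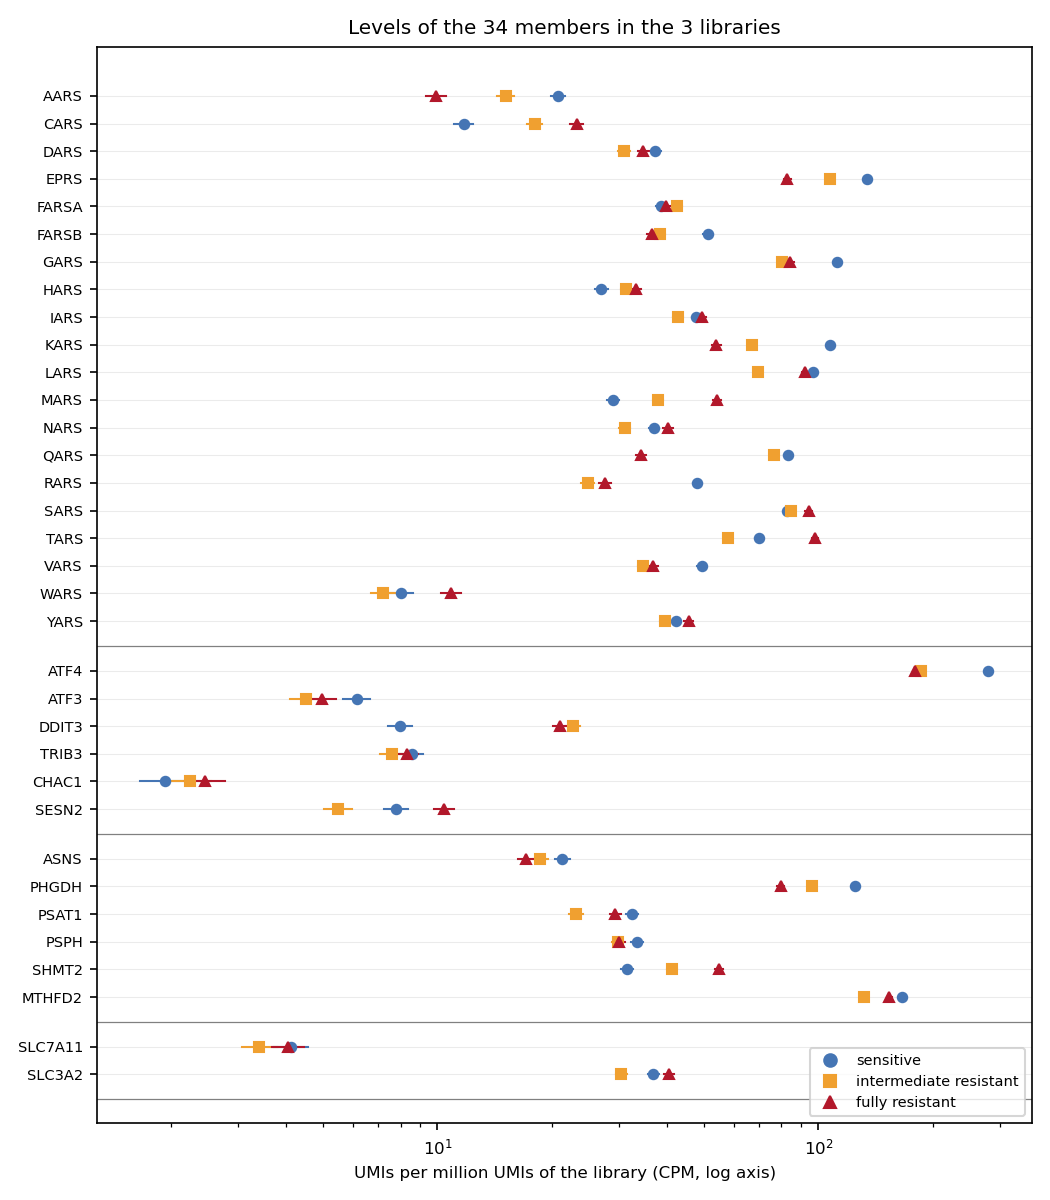
Level of each of the 34 genes in the sensitive (circles), intermediate resistant (squares) and fully resistant (triangles) library, in CPM on a log axis, with exact Poisson 95% intervals that cover counting error only; levels of different genes are not comparable, since the reads come from the 3' end. The widest separations are those of DDIT3, with both resistant libraries right of the sensitive one, and of QARS and AARS, with the fully resistant library at the left.

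Among the synthetases, QARS, which charges glutamine tRNAs, had the lowest ratio of fully resistant to sensitive cells. It stood at 83.2, 76.6 and 34.2 CPM in sensitive, intermediate and fully resistant cells. Fully resistant cells were thus 2.43-fold below sensitive cells (exact conditional Poisson 95% interval 2.34 to 2.53), while the intermediate library lay close to the sensitive one. AARS, the alanine enzyme, had 20.7, 15.1 and 9.92 CPM along the same series, and fully resistant cells were 2.09-fold lower than sensitive cells (1.94 to 2.25). KARS, the lysine enzyme, had 108, 67.0 and 54.0 CPM, a 1.99-fold lower level in fully resistant than in sensitive cells (1.93 to 2.06). For both genes each library of the series lay below the one before it, and their intervals did not overlap.

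RARS, which charges arginine tRNAs, had 48.1 CPM in sensitive, 24.8 in intermediate resistant and 27.6 in fully resistant cells. Here the intermediate library was the lowest, 1.94-fold below sensitive cells (1.85 to 2.03), and fully resistant cells were 1.75-fold below them (1.67 to 1.83). EPRS, the double enzyme for glutamate and proline, stood at 135, 107 and 83.0 CPM in the order of the series. Its ratio passed the limit only for fully resistant against sensitive cells, where it was 1.62-fold lower (1.58 to 1.67).

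CARS and MARS went the other way. CARS, the cysteine enzyme, had 11.7, 18.0 and 23.2 CPM from sensitive through intermediate to fully resistant cells, 1.98-fold higher in fully resistant than in sensitive cells (1.84 to 2.13). MARS, which charges both initiator and elongator methionine tRNAs, had 28.9, 37.9 and 54.2 CPM, 1.87-fold higher in fully resistant than in sensitive cells (1.79 to 1.96). Both thus stood higher in each library than in the one before it, in the opposite order to AARS, KARS and EPRS.

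The other 13 synthetases stayed between a 1.41-fold lower level (FARSB) and a log2 ratio of 0.49 (TARS) in fully resistant against sensitive cells. FARSB, VARS and GARS were at the low end, with 36.5 against 51.3 CPM, 36.7 against 49.4 CPM and 84.4 against 112 CPM. TARS, at 97.9 against 69.8 CPM, and WARS, at 10.9 against 8.04 CPM, were at the high end. FARSA and FARSB, which encode the subunits of a single phenylalanine enzyme, did not run in parallel. FARSA had 39.7 CPM in fully resistant and 38.6 CPM in sensitive cells, a ratio of 1.03 (0.98 to 1.07).

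ATF4 mRNA itself was lower in both resistant libraries. It had 179 CPM in fully resistant and 278 CPM in sensitive cells, a 1.55-fold lower level (1.52 to 1.58). The 186 CPM of intermediate resistant cells lay just short of the 1.5-fold limit against sensitive cells, at a log2 ratio of -0.58. Fully and intermediate resistant cells were 1.04-fold apart (1.02 to 1.06).

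DDIT3, which encodes the stress transcription factor CHOP, was the regulator that was higher in the resistant libraries. It had 7.98 CPM in sensitive, 22.7 CPM in intermediate resistant and 20.9 CPM in fully resistant cells. This was 2.85-fold above sensitive cells in the intermediate library (2.62 to 3.09) and 2.63-fold above them in the fully resistant library (2.42 to 2.85). In cells thinned to 9500 UMIs, a DDIT3 UMI was found in 6.81% of the sensitive, 17.9% of the intermediate and 16% of the fully resistant cells. Without thinning the shares were 11.9%, 26.5% and 25.1% in that order, and RNA outside cells could have supplied at most 0.57% of the UMIs of any member. As library levels against sensitive cells, ATF4 and DDIT3 mRNA therefore stood in opposite directions in both resistant libraries. Across thinned cells within a library, their counts had weak positive Pearson correlations. These were 0.10 in sensitive, 0.09 in intermediate resistant and 0.12 in fully resistant cells.

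The other regulators did not share that step. TRIB3, a pseudokinase induced by ATF4 and CHOP, had 8.55, 7.60 and 8.30 CPM in sensitive, intermediate and fully resistant cells. ATF3, a stress transcription factor, had 6.14, 4.51 and 4.98 CPM in that order. CHAC1, which degrades glutathione, stayed under the level of 5 CPM with 1.92, 2.24 and 2.46 CPM, so it was not counted in any comparison. SESN2, an inhibitor of mTORC1 signalling, had 7.80, 5.49 and 10.4 CPM and was 1.90-fold higher in fully than in intermediate resistant cells (1.71 to 2.11). DDIT3 was thus the only 1 of the 5 measured regulators that passed the limit upwards in either resistant library against sensitive cells.

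The enzymes of serine synthesis were lower or close to level in the resistant libraries. PHGDH, which starts the pathway from a glycolytic intermediate, had 125, 96.0 and 79.6 CPM from sensitive through intermediate to fully resistant cells. Fully resistant cells were 1.57-fold below sensitive cells (1.52 to 1.61). PSAT1, the next enzyme, had 32.4, 23.1 and 29.3 CPM, and PSPH, which releases serine, had 33.5, 29.8 and 29.99 CPM. The 3 steps of the pathway therefore differed, with a stepwise order only in the first.

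SHMT2, the mitochondrial enzyme that turns serine into glycine and a one-carbon unit, ran against PHGDH. It had 31.4, 41.2 and 54.9 CPM in the order of the series, 1.75-fold higher in fully resistant than in sensitive cells (1.67 to 1.83). MTHFD2, which carries the one-carbon unit further, had 166, 132 and 154 CPM. ASNS, which makes asparagine, had 21.3, 18.6 and 17.0 CPM. Neither passed the limit in any of the 3 comparisons.

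SLC3A2, the heavy chain of several amino acid exchangers, had 36.9, 30.4 and 40.6 CPM in the order of the series and was not counted in any comparison. SLC7A11, the light chain that imports cystine, was below 5 CPM in each library, at 4.13, 3.41 and 4.05 CPM. SLC7A11 and CHAC1 are the only members that failed the level in all 3 comparisons, and ATF3 failed it between the resistant libraries.

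In intermediate resistant cells, compared with sensitive cells, fewer members passed the limit. Of 32 measured members, CARS and DDIT3 were higher and KARS and RARS were lower. Over all 9529 genes tested, 5.83% were higher and 12.2% were lower. The median log2 ratio was -0.26 over the synthetases and -0.30 over the ATF4 group, against -0.08 over all genes, and 7 of the 32 members lay above a ratio of 1, beside 40.4% of all genes. From a 2-fold ratio on, DDIT3 was higher and 0 members were lower, against 2.38% and 4.81% of all genes. CARS was 1.54-fold higher in intermediate resistant than in sensitive cells (1.42 to 1.66), and KARS was 1.60-fold lower (1.56 to 1.65).

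Between fully and intermediate resistant cells, TARS, WARS and SESN2 were higher and AARS and QARS were lower, of 31 measured members. The background was 13.8% higher and 8.13% lower of 9614 genes. The median log2 ratio of all genes was itself 0.15 in this comparison, equal to the 0.15 of the synthetases and close to the 0.13 of the ATF4 group. With TMM scaling that median over all genes was 0.00, and the split became 9.64% higher against 10.9% lower. TARS, the threonine enzyme, had 97.9 CPM in fully resistant and 57.8 CPM in intermediate resistant cells, a 1.69-fold difference (1.64 to 1.75). WARS, the tryptophan enzyme, had 10.9 against 7.20 CPM and was 1.51-fold higher (1.37 to 1.65), which each other scaling tried brought under the limit. QARS was 2.24-fold lower in fully than in intermediate resistant cells (2.15 to 2.33), its main step in the series. From a 2-fold ratio on, 0 members were higher and QARS was lower, against 5.71% and 3.91% of all genes.

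The members were then set beside their neighbours on the chromosome. For each, the 20 nearest measured genes outside the set were taken, 10 on each side in the order of gene starts (13 in all for TRIB3, near a chromosome end), and their median log2 ratio was computed. In fully resistant against sensitive cells, KARS had a log2 ratio of -0.995 and its neighbours on chromosome 16 a median of -0.95, with 20 of 20 below a ratio of 1. AARS had -1.06 against -0.81 for its own neighbours, also on the long arm of chromosome 16, and again 20 of 20 were lower. QARS had -1.28 against -0.94 for neighbours on chromosome 3. The genes around these 3 synthetases were thus lower as well, by nearly the same amount for KARS and by less for AARS and QARS.

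Several members on other chromosomes also shifted in the direction of their neighbours. ATF4, on chromosome 22, had a log2 ratio of -0.63 in fully resistant against sensitive cells, and its neighbours had a median of -0.64 with 19 of 20 below a ratio of 1. CARS, on chromosome 11, had 0.98 against 1.07 for its neighbours, of which 19 of 20 were above a ratio of 1. TARS, on chromosome 5, had 0.49 against 0.71. Between intermediate resistant and sensitive cells the pairs were -0.68 and -0.66 for KARS, -0.58 and -0.58 for ATF4, and 0.62 and 1.03 for CARS. CARS was thus raised less than its neighbours there. In fully against intermediate resistant cells they were -1.16 and -0.87 for QARS, and 0.76 and 0.89 for TARS.

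MARS, DDIT3 and SHMT2 lie close together on chromosome 12, and the neighbours of each had a median log2 ratio of 0.47 in fully resistant against sensitive cells. SHMT2 at 0.81 and MARS at 0.90 were above that median, and DDIT3 at 1.39 was further above it. For intermediate resistant against sensitive cells that median was 0.37. MARS and SHMT2 stood at 0.39 each, level with their neighbours, and DDIT3 at 1.51. MARS and DDIT3 overlap on opposite strands in the annotation, and whether the counting used strand is not given in the sources used here, so reads of 1 may have been counted for the other.

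Other members departed from their neighbours, though no fixed limit divides them from the members above. RARS had a log2 ratio of -0.80 in fully resistant against sensitive cells, and its neighbours on chromosome 5 had a median of 0.29. Its log2 ratio was -0.95 in intermediate resistant against sensitive cells, and that of its neighbours -0.02. With 5 neighbours on each side that median was -0.44, so the departure was smaller, and with 25 it was -0.045. In fully resistant against sensitive cells, DDIT3 had 1.39 and its neighbours 0.47, and MARS in the same region had 0.90. PHGDH and EPRS, both on chromosome 1, had -0.65 and -0.70 against 0.06 and -0.25 for their neighbours. These 5 members passed the 1.5-fold limit themselves. Of those that did not, GARS lay at -0.41 with neighbours at 0.21, FARSB at -0.49 with 0.09, and VARS at -0.43 with 0.09. ASNS had -0.32 with neighbours at 0.17, PSPH -0.16 with 0.29, and SESN2 0.42 with -0.05. SESN2, also on chromosome 1, had 0.93 against 0.17 between fully and intermediate resistant cells.

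Across the members, the log2 ratio and the neighbours' median had a Pearson correlation of 0.76 over 32 genes in fully resistant against sensitive cells. It was 0.65 over 32 genes for intermediate resistant against sensitive cells and 0.70 over 31 genes between the resistant libraries. Over all other genes tested it was 0.29, 0.33 and 0.24 in the same order, across 9638, 9370 and 9455 genes. By rank the gap was smaller: Spearman's rho was 0.58, 0.54 and 0.39 over the members and 0.37, 0.35 and 0.31 over the other genes. The smallest gap by rank was between the resistant libraries. These are correlations across genes that share libraries, and MARS, DDIT3 and SHMT2 share most of their neighbours. DNA copy number was not measured, and its part in these differences was not tested.

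**Figure D2:**
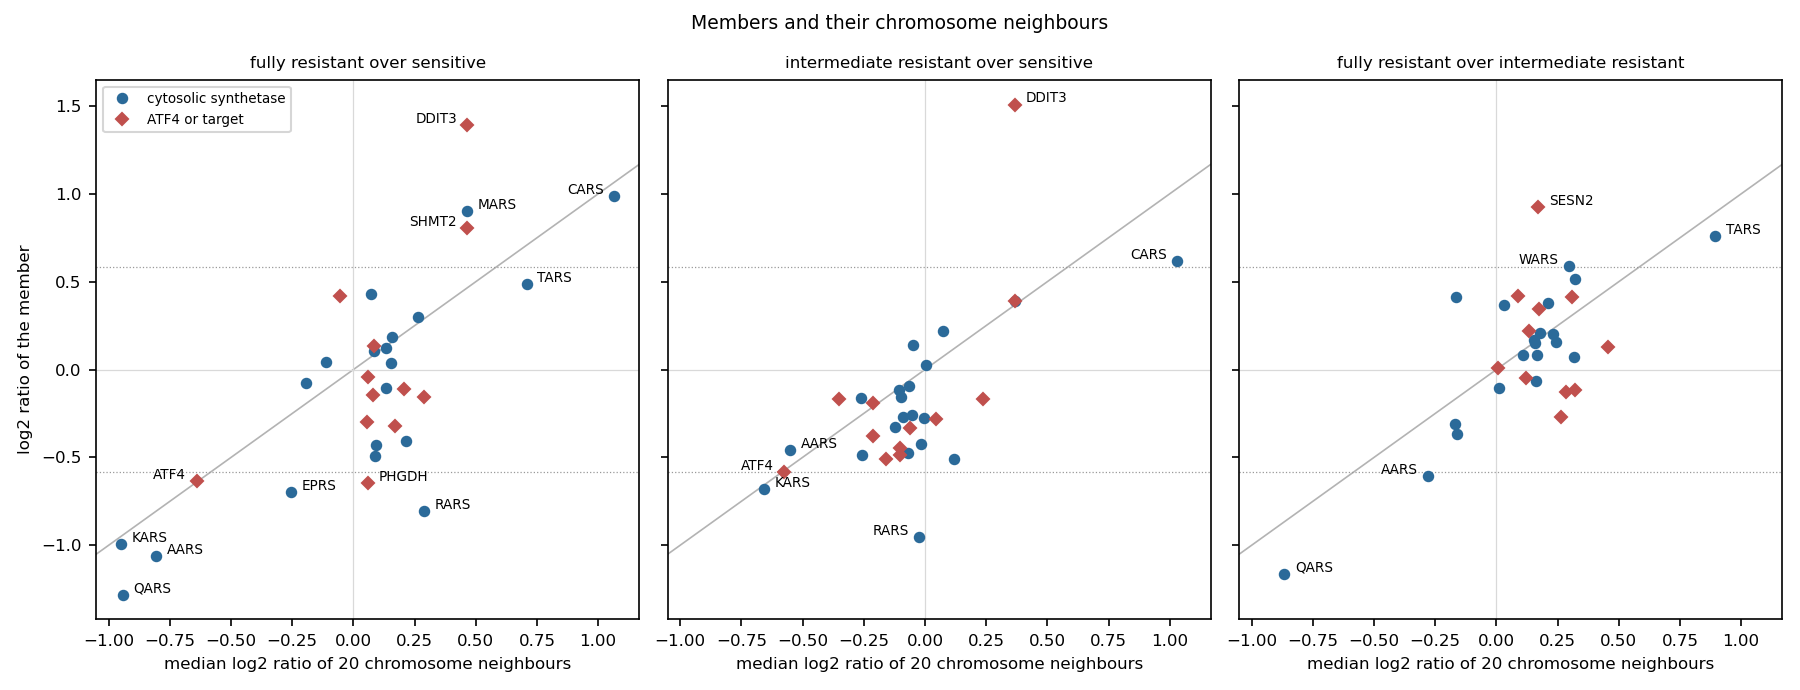
Log2 ratio of each measured member (vertical axis) against the median log2 ratio of its 20 chromosome neighbours (horizontal axis) in the 3 comparisons, with synthetases as circles, ATF4 and its targets as diamonds, the line of equality, and dotted lines at the 1.5-fold limit. In the comparison of fully resistant with sensitive cells, KARS, ATF4 and CARS lie near the line, and AARS and QARS somewhat below it. RARS and PHGDH lie further below it and DDIT3 above it.

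Within the intermediate resistant library, the chromosome 16 values also separated cells. After thinning each cell to 9500 UMIs, which removed 508, 452 and 488 cells of the 3 libraries in the order of the series, the UMIs of 16q genes outside the set were summed per cell. The median sum was 174 in sensitive, 96 in intermediate resistant and 86 in fully resistant cells. A limit of 130 UMIs, halfway between the end libraries, put 99.2% of the sensitive, 16.8% of the intermediate and 0.12% of the fully resistant cells above it. The 978 intermediate resistant cells above the limit had a median sum of 168, near that of sensitive cells, and the 4858 below it had 93. Of the intermediate resistant cells, 460 (7.88%) lay within 10 UMIs of the limit, so the split is a range and not a named cell type. A like sum over chromosome 22, where ATF4 lies, had medians of 246, 174 and 164 UMIs in the order of the series. At its limit of 205 UMIs, 11.9% of the sensitive cells lay at or below it, with a median of 184 against 249 above it. The sensitive library was thus not uniform for chromosome 22 either.

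KARS had a mean of 1.01 UMIs per thinned cell in the high-16q and 0.57 UMIs in the low-16q cells of the intermediate resistant library, a ratio of 1.78 (1.66 to 1.92). AARS had 0.23 and 0.13 UMIs, a ratio of 1.81 (1.55 to 2.11). The 2 synthetases of 16q thus followed the sum that was computed without them. MARS had 0.22 UMIs in high-16q and 0.38 UMIs in low-16q cells, a ratio of 0.59 (0.51 to 0.68). SHMT2 had a ratio of 0.67 (0.59 to 0.76) and DDIT3 also 0.67 (0.56 to 0.79). The 20 neighbours of DDIT3 on chromosome 12 were lower in high-16q cells in 20 of 20 cases, with a median log2 ratio of -0.48.

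Members on other chromosomes differed between these cells as well. SESN2 had 23 UMIs in the high-16q and 269 UMIs in the low-16q cells, a ratio per cell of 0.42 (0.26 to 0.65). TRIB3, on chromosome 20, ran the other way with a ratio of 1.61 (1.28 to 2.0). PHGDH was lower in high-16q cells at 0.76 (0.70 to 0.82), while ATF4 at 1.06 (1.01 to 1.12) and RARS at 0.93 (0.81 to 1.08) were close to even. The 2 sets of cells come from 1 library, and these intervals cover counting error only.

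**Figure D3:**
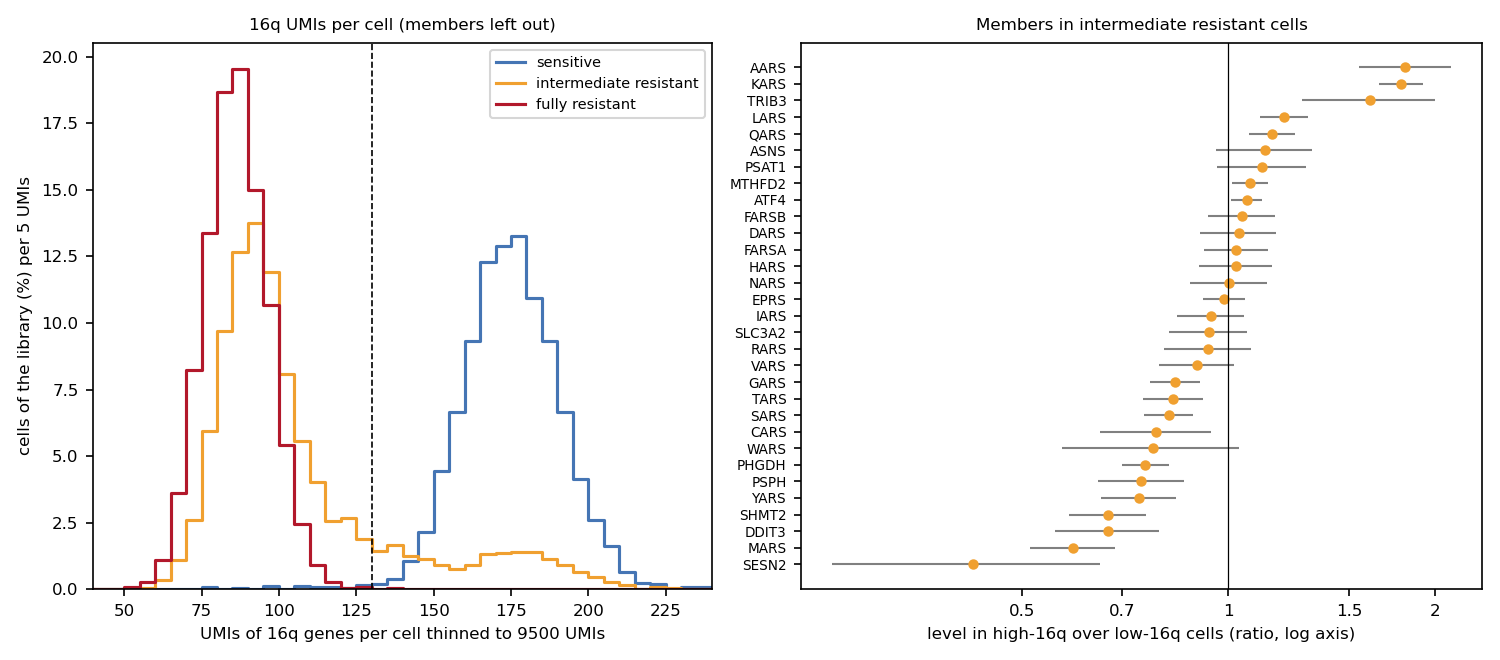
Left, the percentage of cells of each library per bin of 5 UMIs of 16q genes, in cells thinned to 9500 UMIs, with the limit of 130 as a dashed line. Right, the ratio of the level of each member with at least 250 UMIs in high-16q over low-16q intermediate resistant cells on a log axis, with exact 95% intervals; AARS and KARS lie at 1.81 and 1.78, and MARS and DDIT3 at 0.59 and 0.67.

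Between single cells of 1 library, the counts of each synthetase were small. Summed over the 20 synthetases, the median cell had 11 UMIs in sensitive, 9 in intermediate resistant and 9 in fully resistant cells, of 9500. The sum over ATF4 and its targets had a median of 7, 5 and 6 UMIs in that order. A variance equal to the mean is what counting alone gives, and at such low means a single gene stays near that ratio even where cells differ. Over the synthetases in all libraries the variance over the mean lay between 0.98 and 1.22. The summed synthetase UMIs had 1.20, 1.20 and 1.33 in sensitive, intermediate and fully resistant cells, and the sum over ATF4 and its targets 1.62, 1.44 and 1.66. KARS had 1.03 in sensitive and 0.98 in fully resistant cells. In intermediate resistant cells KARS had 1.22, against a median of 1.07 over genes of a like mean. Cells of this library fell on both sides of the 16q limit, and the part of that split in the KARS value was not tested.

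Among the ATF4 targets, DDIT3 was more uneven across cells than genes of a like mean. DDIT3 had a variance over the mean of 1.24 in sensitive, 1.22 in intermediate resistant and 1.37 in fully resistant cells. Genes whose mean lay within a factor of 0.8 in either direction had medians of 1.01, 1.03 and 1.03. SESN2 had 1.09, 1.05 and 1.24 in the same order, with up to 9 UMIs in a fully resistant cell. PHGDH had 1.23, 1.17 and 1.17, SLC3A2 1.17, 1.08 and 1.20, and ASNS 1.15, 1.06 and 1.11. SESN2 and these genes are not set beside genes of a like mean here, so their unevenness is not judged. Pearson correlations between members across cells were weak, with a highest value of 0.10 in sensitive, 0.09 in intermediate resistant and 0.12 in fully resistant cells. The highest pair was ASNS with PHGDH in sensitive cells and ATF4 with DDIT3 in each resistant library. Cells of a library share 1 depth after thinning.

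The other genes of the pathway were read from lists. Only the members were set beside chromosome neighbours, so the part of chromosome regions in the list values below was not tested. The list of 20 mitochondrial genes, which serve translation inside mitochondria, holds synthetases and 3 subunits (QRSL1, PET112 and GATC) of the amidotransferase that completes glutaminyl-tRNA there. Of 18 measured, 1 was higher and 0 were lower in fully resistant against sensitive cells, at a median log2 ratio of 0.07. Over all genes tested, 15.2% were higher and 14.7% lower in that comparison. The gene that was higher, GATC, is such a subunit, so 0 synthetases of this list passed the limit in that comparison. NARS2, the mitochondrial asparagine enzyme, had 45.0 CPM in fully resistant and 29.2 CPM in intermediate resistant cells. It was the only gene of that list counted between them, where 13.8% of all genes were higher and 8.13% lower. Among the scaffolds and export factors, XPOT, which exports tRNAs from the nucleus, had 32.3 CPM in fully resistant and 20.02 CPM in sensitive cells. EEF1A2, an elongation factor that delivers charged tRNAs, had 39.9 CPM in fully resistant and 87.4 CPM in sensitive cells.

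Upstream of ATF4, 15 genes of the eIF2 kinases, eIF2, eIF2B and the eIF2 phosphatase were measured. In fully resistant against sensitive cells 2 were higher and 0 were lower, beside 15.2% and 14.7% of all genes. EIF2S2, the beta subunit of eIF2, had 361 CPM in fully resistant and 195 CPM in sensitive cells. EIF2B1, a subunit of the exchange factor that recharges eIF2, had 98.6 against 56.8 CPM. Between intermediate resistant and sensitive cells 0 of the 15 passed the limit, beside 5.83% of all genes higher and 12.2% lower. Phosphorylation of eIF2, the signal that acts on ATF4, is not seen in RNA counts.

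The arm of the unfolded protein response that raises chaperones of the endoplasmic reticulum was higher in part. Of 13 measured genes, 4 were higher and 0 were lower in fully resistant against sensitive cells, beside 15.2% and 14.7% of all genes. The median log2 ratio of the list was 0.44, against 0.08 for all genes. The chaperone HSP90B1 had 373 CPM in fully resistant and 135 CPM in sensitive cells, and the disulfide isomerase PDIA4 had 93.1 against 54.0 CPM. HSPA5, the chaperone BiP, had 55.1 CPM in sensitive, 86.1 CPM in intermediate resistant and 86.9 CPM in fully resistant cells. HSPA5 and HSP90B1 were the 2 genes of this list counted in intermediate resistant against sensitive cells. Both were higher there, as were 5.83% of all genes. MANF, of the same list, had 67.7 CPM in sensitive, 87.6 CPM in intermediate resistant and 50.2 CPM in fully resistant cells. DDIT3 was higher in the same libraries as HSPA5, and a link between DDIT3 and this list was not tested.

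Other ATF4 targets were split. Of 14 measured, DDIT4 and KLHL24 were higher in fully resistant against sensitive cells, and CEBPB, GPT2 and HERPUD1 were lower. The shares over all genes were 15.2% higher and 14.7% lower. DDIT4, an inhibitor of mTORC1, had 37.1 CPM in fully resistant and 21.3 CPM in sensitive cells. HERPUD1, a component of protein degradation at the endoplasmic reticulum, had 29 against 50.6 CPM. PYCR1, a proline synthesis enzyme, was the 1 gene of this list counted in intermediate resistant against sensitive cells, with 65.4 against 114 CPM. Among all genes 12.2% were lower in that comparison.

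Carriers and folate enzymes were counted in both directions. SLC7A5, the leucine exchanger that pairs with SLC3A2, had 26.3, 15.2 and 12.6 CPM in sensitive, intermediate and fully resistant cells. Of 9 measured carriers, 1 was higher and 2 were lower in fully resistant against sensitive cells. Of 13 measured folate, glycine and glutamine genes, 1 was higher and 3 were lower in the same comparison. Both counts stand beside 15.2% of all genes higher and 14.7% lower. GCSH, a carrier protein of glycine cleavage, had 123 CPM in fully resistant and 259 CPM in sensitive cells. TYMS, which uses a one-carbon unit to make thymidylate, had 363 against 194 CPM. Between intermediate resistant and sensitive cells, 0 of the 13 were higher, and MTHFD1, MTHFD1L, MTHFD2L and GCSH were lower. The shares over all genes were 5.83% and 12.2%. SLC7A5, GCSH and the other genes of these lists were not set beside their chromosome neighbours.

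**Figure D4:**
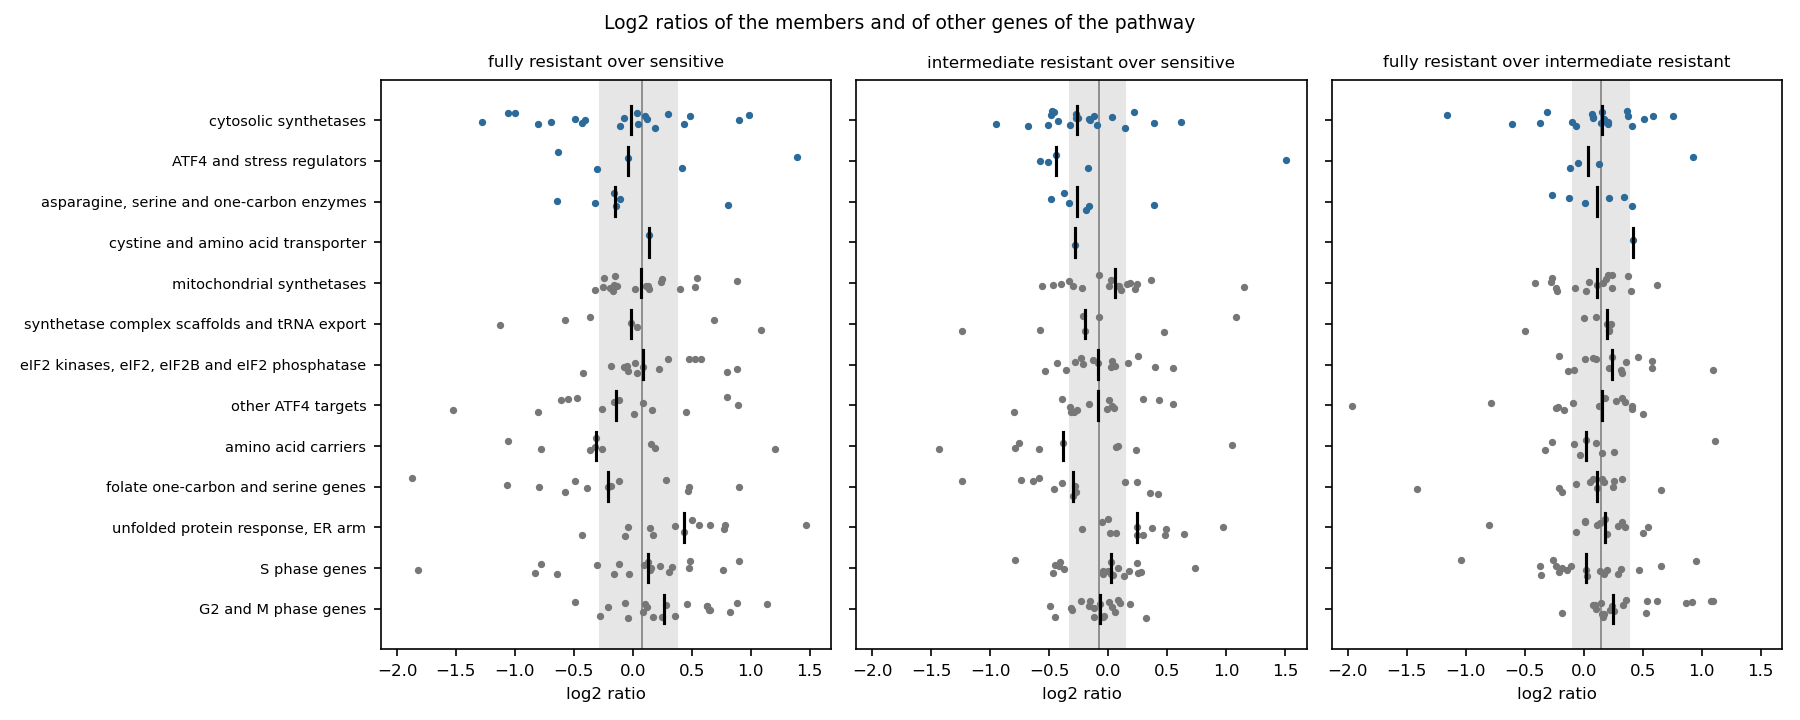
Log2 ratio of each measured gene (dots) by list in the 3 comparisons, with members in blue, other genes of the pathway in grey, the median of each list as a black bar, and the median and interquartile range of all genes tested as a grey line and band. The endoplasmic reticulum list has its median of 0.44 right of the band in fully resistant against sensitive cells, and the synthetases spread from -1.28 to 0.98 around a median of -0.02.

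G2 and M phase genes were higher in the fully resistant library and are given beside the members. Of the 20 genes of that list, 7 were higher and 0 were lower in fully resistant against sensitive cells, beside 15.2% and 14.7% of all genes. The S phase list went both ways, with 2 genes higher and 4 lower of 19, at a median log2 ratio of 0.13. Across thinned cells, the Pearson correlation of the summed synthetase UMIs with the summed UMIs of the G2 and M list was 0.12 in 4907 sensitive, 0.08 in 5836 intermediate resistant and 0.24 in 5843 fully resistant cells. With the S phase list it was 0.04, 0.08 and 0.11, and for the ATF4 group it was 0.08, 0.17 and 0.20, in the same order. The points of each value share 1 library and 1 depth. In cells with no UMI of the G2 and M list, SHMT2 had a log2 ratio of -0.14 in fully resistant against sensitive cells, in contrast to 0.81 over all cells. That subset holds 206 fully resistant and 73 sensitive cells. The ATF4 group also lay lower there, at a median log2 ratio of -0.74 in fully resistant against sensitive cells, whereas it was -0.13 over all cells. ATF4 had -1.30 in the subset and -0.63 over all cells, and ASNS had -1.44 and -0.32. PSAT1 had -1.08 and -0.15, and SESN2 had -1.16 in the subset and 0.42 over all cells. All genes spread more widely in these few cells, with 24.4% higher and 22.5% lower by the same rule.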

How the data were processed

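UMI counts per gene and barcode were deposited by the authors as raw, unnormalized matrices from 3 droplet libraries (Chromium Single Cell 3' v2 chemistry, per the labels' protocols). Per the submitters' processing notes, bcl2fastq, Cell Ranger and the hg19 build were used; versions, and whether counting used strand, are not given in the sources used here. Each matrix held 737280 barcodes, so cells were called here. Columns left unused numbered 0.

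Levels are UMI sums over the cells of a library per 1000000 of all their UMIs (CPM). Levels carry exact Poisson, ratios exact conditional Poisson and shares exact Clopper-Pearson 95% intervals, which cover counting error only. With 1 library per group, no p-value was computed. Doublets were kept, since Scrublet (in scanpy 1.11.5, at an expected rate of 0.05) called only 0.092%, 0.064% and 0.079% of sensitive, intermediate and fully resistant cells. Gene order came from an annotation of GRCh38 by gene identifier (31112 of 32738 matched) and gave no coordinates. Python 3.11.15, NumPy 2.4.6, SciPy 1.17.1 and pandas 2.3.3 were used, and edgeR 4.0.16 for TMM factors only. The sums, ratios, intervals and thinning were tested on simulated data.

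The members and lists were chosen with earlier results of these data known. All 34 members are accounted for. Of each pathway list, up to 4 genes per comparison could be named, by size of log2 ratio among those reaching 20 CPM; GATC, CEBPB and GPT2 fall outside and were named after their values were seen. UHRF1 and PECAM1, on the lists, were not analysed here. Of the adrenergic markers, only part is reported here. Other scalings, cell filters, level limits and neighbour numbers were tried, and the 16q settings were added after the data were seen.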

Additional observations from a re-analysis of the deposited data

How the results depend on the processing

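No paired analysis was possible because each group holds 1 library and the groups share only 1 replicate number. The counts of members and the list medians kept their values within 1.5 times, or within counting error, with cells of at least 10000 UMIs, cells called by a share of the deepest barcodes, at most 10% mitochondrial UMIs, Scrublet calls left out, cells thinned to 9500 UMIs and no minimum CPM. In fully resistant against sensitive cells, the synthetase median became -0.11 with TMM, -0.088 with median-of-ratios scaling and -0.075 at a minimum CPM of 20, and the ATF4 group median became -0.22 with TMM. In intermediate resistant against sensitive cells, the ATF4 group median became -0.22 when mitochondrially encoded and ribosomal protein genes were left out of the total. Between fully and intermediate resistant cells, the synthetase median became 0.040 under that total, 0.011 with TMM and 0.042 with median-of-ratios scaling, and the ATF4 group median became -0.017 with TMM. At a minimum CPM of 20, 1 member was higher in intermediate resistant than in sensitive cells, and between fully and intermediate resistant cells 1 was higher and 1 lower. At 2-fold, 1 member (DDIT3) was higher and 2 (AARS and QARS) lower in fully resistant against sensitive cells, 1 higher and 0 lower in intermediate resistant against sensitive cells, and 0 higher and 1 lower between fully and intermediate resistant cells. In cells with no UMI of the G2 and M list (73, 282 and 206 cells of the sensitive, intermediate and fully resistant libraries), 14 members were lower in fully resistant against sensitive cells, 9 in intermediate resistant against sensitive cells and 5 between fully and intermediate resistant cells, and 4, 3 and 4 were higher. All genes also passed the limit more often there, with 22.5%, 26.01% and 11.9% lower and 24.4%, 13.8% and 25.98% higher in the same order. The medians there were -0.18, and 0.076 between the resistant libraries, for synthetases, and -0.74, -0.74 and -0.14 in the 3 comparisons for the ATF4 group. SHMT2 turned to -0.14 in fully resistant against sensitive cells there, and no interval was computed for these subset values. Without the high-16q intermediate resistant cells, and without those under 9500 UMIs, 4 members were lower in intermediate resistant against sensitive cells, AARS and ATF4 being added, and 1 was lower between fully and intermediate resistant cells. The cause of these shifts was not tested. With 5 or 25 neighbours on each side, the neighbour median of ATF4 in fully resistant against sensitive cells was -0.65 or -0.51, and that of RARS 0.10 or 0.04. In intermediate resistant against sensitive cells, that of RARS was -0.44 or -0.045. Depth limits CHAC1 and SLC7A11, at 183 and 393 UMIs in sensitive cells.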
